A study of Mus musculus with 2 samples.

Results

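The 10 genes described here make up the core of oxygen sensing in mouse cells: Hif1a, Epas1, Hif3a and Arnt, Egln1, Egln2, Egln3 and Vhl, and the response genes Bnip3 and Ddit4. They were found by their symbols among the 32285 genes counted in each library, and all 10 had at least 1 transcript in both libraries. The E4 library came from knock-in mice homozygous for the human E4 allele, and the E3 library from mice homozygous for human E3, with the human gene placed at the mouse Apoe locus in every cell. Both groups were female and 11 to 12 months old. Right hemispheres without brainstem and cerebellum from 3 animals of a genotype were pooled, dissociated with enzymes at raised temperature and loaded as 1 library for droplet-based single-cell RNA sequencing, so there was 1 E4 library and 1 E3 library, with no replicate check and no test of genotype. Each transcript was counted once through its unique molecular identifier (UMI), at the 3' end of the RNA.

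In cells with enough oxygen, the prolyl hydroxylases made by Egln1, Egln2 and Egln3 mark the alpha subunits of the hypoxia-inducible factors (HIF), and the ubiquitin ligase subunit made by Vhl binds the marked protein so that it is destroyed. When oxygen is short the alpha subunits escape this mark, pair with the beta subunit made by Arnt and switch on genes for glycolysis, vessel growth and mitochondrial turnover. The system is therefore controlled mostly at the level of protein, and RNA shows how much of each part a cell can make rather than whether the pathway is active. Hif1a encodes the alpha subunit present in most cell types, Epas1 the related subunit known for its high level in endothelium, and Hif3a a shorter relative with splice forms that can hold the others back. Bnip3 encodes a mitochondrial outer membrane protein that recruits the autophagy machinery, and Ddit4 an inhibitor of the growth kinase complex mTORC1 that also answers to glucocorticoids and to stress.

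On the GRCm38 assembly the 4 HIF subunit genes lie on different chromosomes: Hif1a at chr12:73901375-73947530, Epas1 at chr17:86753700-86833410, Hif3a at chr7:17031507-17062427 and Arnt at chr3:95434388-95497240. The hydroxylase genes are at chr8:124908587-124949324 (Egln1), chr7:27158658-27166802 (Egln2) and chr12:54178981-54203860 (Egln3), and Vhl is at chr6:113623959-113631633. Bnip3 is at chr7:138890836-138909519 and Ddit4 at chr10:59949669-59951834, all of them annotated as protein coding. Hif3a and Egln2 lie 2.63 and 7.46 Mb from Apoe, the locus that carries the human allele, and Bnip3 lies on the same chromosome 119 Mb away. Genes on the opposite strand overlap Hif1a (Gm15283), Egln2 (Cyp2t4) and Bnip3 (Gm45507), and no source used here says whether the counting used strand.

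The HIF dimer binds a short core, ACGTG or GCGTG, and the bases upstream of the start sites are shown for Bnip3, Ddit4 and Egln3 because these members are known HIF targets. RefSeq promoter windows on GRCm38.p6, from 250 bases before to 50 after the start, were matched for 9 of the 10 genes, and both cores were searched on both strands, overlapping matches included. Capitals mark the cores below, given 5′ to 3′ in the direction of the gene and ending before the start site of both annotations, from chr7:138909520-138909756 (minus strand) for Bnip3, chr10:59951835-59952020 (minus strand) for Ddit4 and chr12:54203875-54204124 (minus strand) for Egln3.
Bnip3: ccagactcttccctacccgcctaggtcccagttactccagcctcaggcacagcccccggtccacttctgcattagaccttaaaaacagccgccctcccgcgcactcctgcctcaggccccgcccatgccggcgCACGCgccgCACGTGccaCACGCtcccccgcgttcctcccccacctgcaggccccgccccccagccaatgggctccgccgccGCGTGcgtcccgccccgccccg
Ddit4: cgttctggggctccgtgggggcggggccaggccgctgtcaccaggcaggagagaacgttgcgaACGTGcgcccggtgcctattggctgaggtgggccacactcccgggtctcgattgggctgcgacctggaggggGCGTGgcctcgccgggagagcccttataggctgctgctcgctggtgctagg
Egln3: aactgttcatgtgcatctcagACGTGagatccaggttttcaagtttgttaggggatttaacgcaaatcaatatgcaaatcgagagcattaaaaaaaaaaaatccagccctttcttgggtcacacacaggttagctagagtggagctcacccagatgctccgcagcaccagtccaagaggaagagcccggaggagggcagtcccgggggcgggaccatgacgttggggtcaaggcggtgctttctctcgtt
Bnip3 held 5 cores in its window, with CACGTG read from both strands near the middle, Ddit4 held 2 and Egln3 held 1. Of the other windows, the first of Egln2 held 6 cores, that of Hif1a 3, those of Hif3a and Egln1 2 each, that of Arnt 1 and that of Vhl 0. Such letters are common: 43.8% of 32851 mouse windows held at least 1 core, 20.6% at least 2 and 1.66% at least 5. A match describes the letters and does not show that a factor binds there.

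Cells were grouped by clustering without the 10 genes and named from fixed markers, and a named cluster is called a class. The E4 library held 71625170 UMIs in 13802 barcodes with a median of 4085 UMIs, and the E3 library 56415229 UMIs in 11485 barcodes with a median of 3784, of which 46 barcodes occurred in both. After the cell filter, 10243 of 13528 E4 cells and 8581 of 11288 E3 cells had a class. The classes held 119 to 3481 E4 cells and 152 to 2973 E3 cells apart from mural-like cells, with 208 E4 and 97 E3 cells, which are described on their own. No oligodendrocyte precursor or neuron class was named. A cluster of 99 E4 and 71 E3 cells had Gpr17, Tnr, Syt1 and Snap25 among its leading genes. It stayed unnamed because of leading genes of another class. Cells left out because their cluster carried transcripts of another class or was shallow made up 19.7% of E4 and 20.5% of E3 cells. The counts carry no base calls, so the allele of each library rests on its label. Levels are in CPM, the UMIs of a gene in a class and library scaled to a class total of 1000000, with exact 95% Poisson intervals, and intervals throughout cover counting error only. A class sum is relative, so a lower CPM can mean fewer transcripts of the gene or more of others.

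The 10 genes divided the brain's cell classes between them, in the same way in both libraries. Endothelial-like cells had the highest level of Epas1, Egln1, Egln2, Bnip3 and Ddit4, astrocyte-like cells that of Hif1a and Hif3a, microglia-like cells that of Arnt and Vhl, and meningeal-like cells that of Egln3. The class with the highest level was the same in E4 as in E3 for 10 of 10 genes, and for 5 of them (Hif1a, Hif3a, Epas1, Egln1 and Egln3) its interval lay above that of the next class in both libraries. For the other 5 the leading class and its neighbour could not be told apart in at least 1 library. Erythroid-like cells were lowest for most genes, and 828196 CPM of their E4 sum and 827316 CPM of their E3 sum came from 5 erythroid markers, mostly haemoglobin genes.

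**Figure D1:**
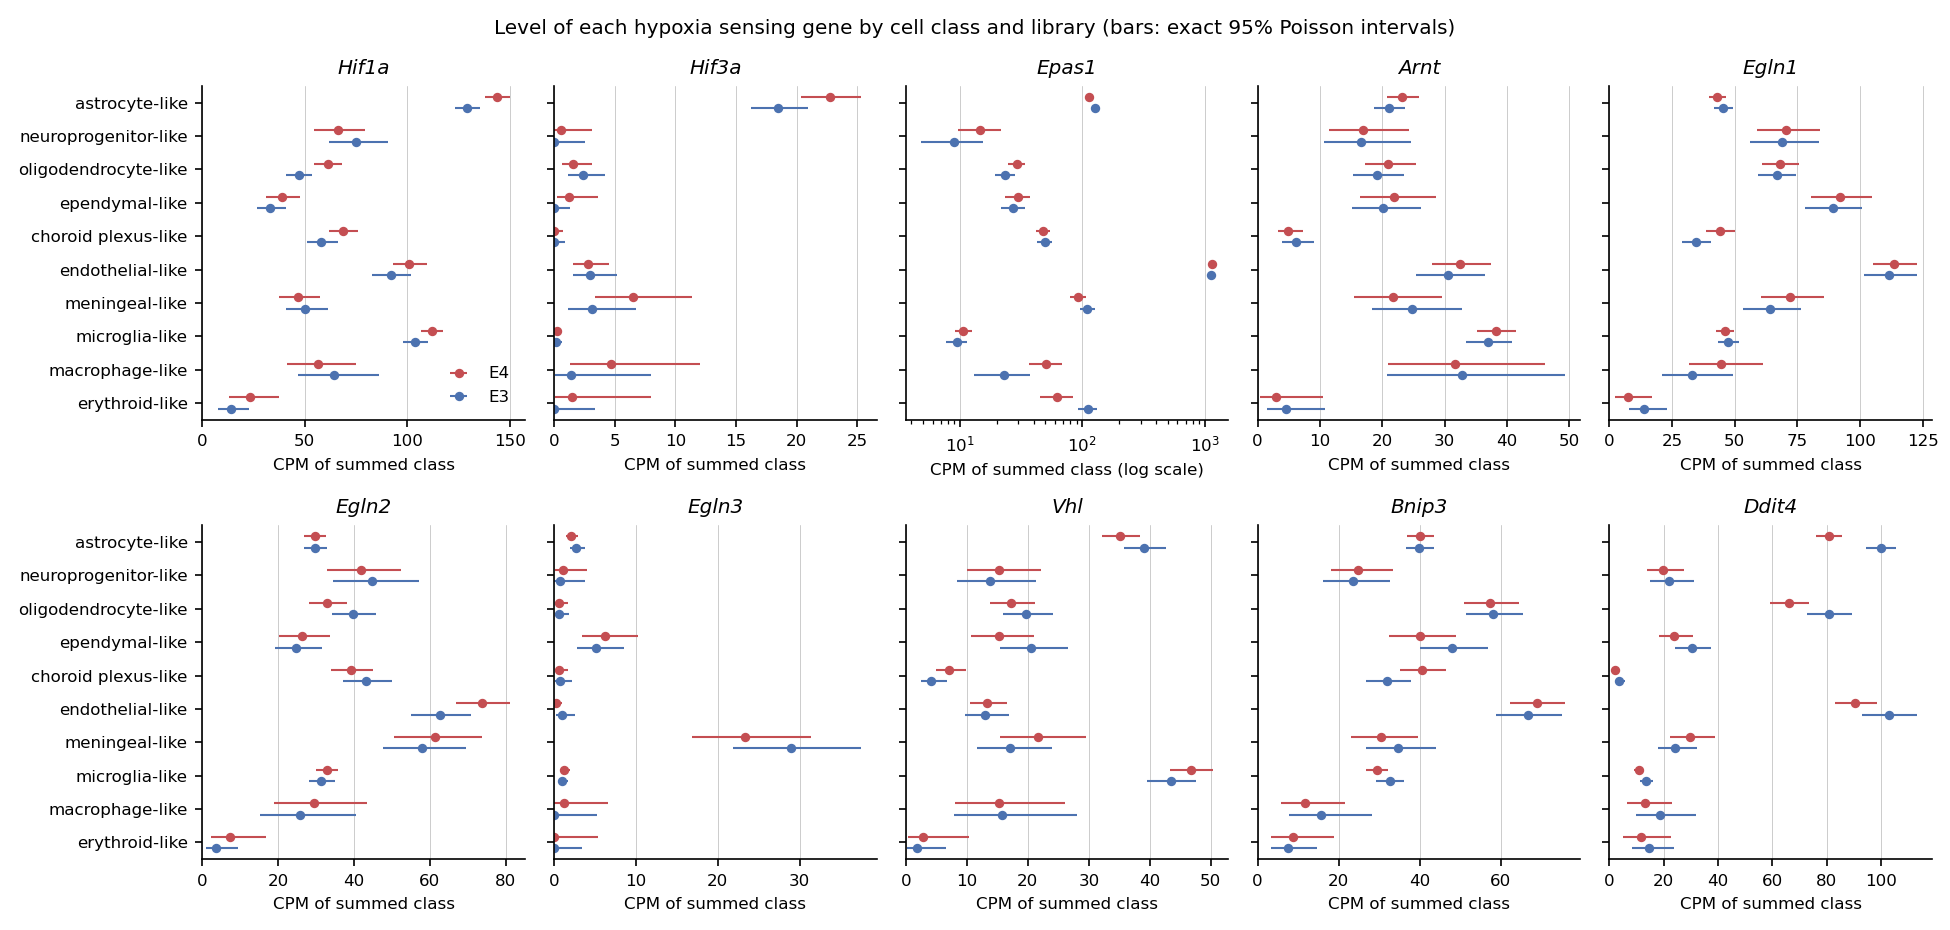
Level of each of the 10 genes (x axis, CPM of the summed class, a log scale for Epas1 only) in 10 cell classes (y axis), with E4 in red above E3 in blue and bars for exact 95% Poisson intervals. The leading class is shared by both libraries in every panel, and Epas1 stands at 1161 CPM in E4 and 1134 CPM in E3 endothelial-like cells.

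Among the alpha subunits, Hif1a was found in every class, and astrocyte-like cells led with 144 CPM in E4 (95% interval 138 to 150.1) and 129 CPM in E3 (123 to 136). Microglia-like cells followed at 112 CPM in E4 and 104 CPM in E3, and endothelial-like cells at 101 CPM in E4 and 92.1 CPM in E3. The intervals of these neighbours overlapped in both libraries, so their order is not settled. Neuroprogenitor-like cells had 66.1 CPM in E4 and 75.1 CPM in E3, and choroid plexus-like cells 68.6 CPM in E4 and 58.1 CPM in E3. Macrophage-like cells had 56.4 CPM in E4 and 64.3 CPM in E3, oligodendrocyte-like cells 61.1 CPM in E4 and 46.9 CPM in E3, and meningeal-like cells 46.6 CPM in E4 and 50.1 CPM in E3. From neuroprogenitor-like to ependymal-like cells, at 38.8 CPM in E4 and 33.2 CPM in E3, no class stood apart from the next in both libraries. The step from the highest class to the next was small, 1.28 times in E4 and 1.24 times in E3.

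Epas1 had the steepest distribution of the 10. Endothelial-like cells reached 1161 CPM in E4 (6653 UMIs) and 1134 CPM in E3 (4567 UMIs), 10.3 times the next class in E4 and 8.89 times in E3. A transcript was seen in 92.9% of E4 and 93.7% of E3 endothelial-like cells, against 4.44% of E4 and 3.51% of E3 microglia-like cells, with median depths of 3767 UMIs in E4 and 3880 UMIs in E3 endothelial-like cells and 4294 UMIs in E4 and 3733.5 UMIs in E3 microglia-like cells. After each cell was thinned to 1000 UMIs the endothelial share was 63.8% in E4 and 65.2% in E3. The second tier was formed by astrocyte-like cells with 113 CPM in E4 and 128 CPM in E3, and meningeal-like cells with 92.7 CPM in E4 and 110.4 CPM in E3. Astrocyte markers summed to 2079 CPM in E4 and 2035 CPM in E3 meningeal-like cells. In astrocyte-like cells the sums were 20448 CPM in E4 and 19955 CPM in E3. The part of the astrocyte transcripts in the meningeal Epas1 level was not tested. Microglia-like cells, second for Hif1a, had only 10.7 CPM of Epas1 in E4 and 9.48 CPM in E3, and neuroprogenitor-like cells, at 14.7 CPM in E4 and 8.95 CPM in E3, could not be told apart from them. In erythroid-like cells Epas1 read 61.9 CPM in E4 and 110.5 CPM in E3 but came from 8.4% of E4 and 8.55% of E3 cells. Endothelial markers summed to 820.5 CPM in E4 and 1961 CPM in E3 over that class. The part of those endothelial transcripts in the Epas1 level was not tested.

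Hif3a was far higher in astrocyte-like cells than elsewhere, with 22.7 CPM in E4 (326 UMIs) and 18.5 CPM in E3 (238 UMIs). Meningeal-like cells came next with 6.5 CPM in E4 (12 UMIs) and 3.1 CPM in E3 (6 UMIs), and the other classes had at most 4.7 CPM. Astrocyte markers summed to 2079 CPM in E4 and 2035 CPM in E3 meningeal-like cells. The part of those astrocyte transcripts in the meningeal Hif3a level was not tested. In choroid plexus-like cells no Hif3a UMI was counted, where 3 UMIs would have given 0.589 CPM in E4 and 0.735 CPM in E3. A UMI of Hif3a was seen in 8.53% of E4 and 7.6% of E3 astrocyte-like cells, against 0.12% of E4 and 0.074% of E3 microglia-like cells. The median depth of the astrocyte-like cells was 3949 UMIs in E4 and 4028 UMIs in E3. Arnt, the shared partner, was spread more evenly, with 38.2 CPM in E4 and 37.0 CPM in E3 microglia-like cells and 31.7 CPM in E4 and 32.8 CPM in E3 macrophage-like cells. Endothelial-like cells had 32.5 CPM in E4 and 30.5 CPM in E3, and astrocyte-like cells 23.2 CPM in E4 and 21.0 CPM in E3. Only choroid plexus-like cells, with 4.91 CPM in E4 and 6.13 CPM in E3, and erythroid-like cells were much lower.

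The 3 hydroxylase genes had different homes. Egln1, which encodes the main oxygen sensor of the family, led in endothelial-like cells with 114 CPM in E4 (105 to 123) and 112 CPM in E3 (102 to 123). Ependymal-like cells followed with 91.9 CPM in E4 and 89.0 CPM in E3, then meningeal-like, neuroprogenitor-like and oligodendrocyte-like cells between 64.0 and 72.1 CPM in both libraries. Astrocyte-like cells, which led for Hif1a, had only 42.9 CPM of Egln1 in E4 and 45.4 CPM in E3. Egln2, which encodes the hydroxylase found mainly in the nucleus, read 73.6 CPM in E4 and 62.6 CPM in E3 endothelial-like cells and 61.2 CPM in E4 and 57.8 CPM in E3 meningeal-like cells, and the remaining classes other than erythroid-like cells lay between 24.8 and 44.8 CPM. Egln3, itself a target of HIF, was rare: meningeal-like cells had 23.3 CPM in E4 (43 UMIs) and 28.9 CPM in E3 (56 UMIs), ependymal-like cells 6.18 CPM in E4 and 5.11 CPM in E3, astrocyte-like cells 2.09 CPM in E4 and 2.72 CPM in E3, and all other classes at most 1.2 CPM. The meningeal level was 3.77 times the ependymal one in E4 and 5.66 times in E3.

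Vhl was highest in microglia-like cells, at 46.8 CPM in E4 and 43.4 CPM in E3, with astrocyte-like cells next at 35.1 CPM in E4 and 39.1 CPM in E3. The intervals of these classes met in E3 but not in E4. Endothelial-like cells, which led for both Egln1 and Epas1, had 13.3 CPM of Vhl in E4 and 12.9 CPM in E3, and choroid plexus-like cells 7.07 CPM in E4 and 4.17 CPM in E3. The response gene Bnip3 reached 68.8 CPM in E4 and 66.5 CPM in E3 endothelial-like cells and 57.4 CPM in E4 and 58.1 CPM in E3 oligodendrocyte-like cells. It was at 29.4 CPM in E4 and 32.5 CPM in E3 microglia-like cells. Ddit4 split the classes more sharply, with 90.6 CPM in E4 and 103 CPM in E3 endothelial-like cells, 80.8 CPM in E4 and 100.0 CPM in E3 astrocyte-like cells and 66.1 CPM in E4 and 80.8 CPM in E3 oligodendrocyte-like cells. It was low in microglia-like cells, at 10.7 CPM in E4 and 13.5 CPM in E3, and lowest in choroid plexus-like cells, at 2.16 CPM in E4 and 3.43 CPM in E3.

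Mural-like cells, the pericytes and smooth muscle of the vessel wall, also carried much Epas1. Their 208 E4 cells had 753 CPM and their 97 E3 cells 626 CPM of Epas1, with 815 CPM of endothelial markers in the class over both libraries, against 22543 CPM in E4 and 21478 CPM in E3 endothelial-like cells. The pericyte group had 729.9 CPM of Epas1 in E4 and 552 CPM in E3, and the smooth muscle group 848 CPM in 50 E4 cells and 838 CPM in 18 E3 cells. Hif1a in all mural-like cells was 97.4 CPM in E4 and 83.9 CPM in E3. Egln3 had no UMI in either library of this class.

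Within classes, sub-groups were defined by clustering each class again without the 10 genes, and the differences between them are described without a test. Astrocyte-like cells were uneven in Hif1a. Groups 1 and 5, which carried the markers of non-telencephalic astrocytes (5582 and 8828 CPM, against 651 to 1570 CPM in groups 2, 3, 4 and 6), had 225 CPM of Hif1a in E4 and 192 CPM in E3. The telencephalic groups 2, 3, 4 and 6 had 91.5 CPM in E4 and 95.0 CPM in E3, so that non-telencephalic groups were 2.46 times higher in E4 and 2.02 times higher in E3. The intervals of these ratios on the log2 scale were 1.17 to 1.43 in E4 and 0.87 to 1.16 in E3. Epas1 was particularly high in group 5, with Sparc, Igsf1, Itih3 and Nkx6-2 among its leading genes, at 172 CPM in E4 and 206 CPM in E3, against 100.2 to 116 CPM in E4 and 103 to 135 CPM in E3 in groups 1, 2, 3, 4 and 6. Group 7, led by Syne1 and Ddx17 and with a low median of 1559.5 UMIs, was placed in neither set. It carried 3029 CPM of non-telencephalic and 908 CPM of telencephalic markers. Its Hif1a was 200.3 CPM in E4 (46 UMIs) and 116 CPM in E3 (31 UMIs). Vhl ran the other way in group 1, led by A330076C08Rik, Sfrp5 and Chl1, with 20.2 CPM in E4 and 31.7 CPM in E3 against at least 37.5 CPM in E4 and 40.1 CPM in E3 in groups 2 to 6. Hif3a differed little by contrast, with 22.1 CPM in E4 and 17.1 CPM in E3 in groups 1 and 5, against 23.4 CPM in E4 and 19.6 CPM in E3 in the telencephalic groups.

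Epas1 and Hif1a differed in opposite directions between the arterial or venous group and the other endothelial groups. Endothelial group 1, with the arterial genes Bmx and Gkn3 among its leading genes, had 1417 CPM of Epas1 in E4 and 1438 CPM in E3, against 1058 CPM in E4 and 1046 CPM in E3 in the remaining endothelial groups. The same arterial group had the lower Hif1a, at 69.3 CPM in E4 and 64.2 CPM in E3, against 114 CPM in E4 and 100.2 CPM in E3 in the other groups. Group 6, with the venous genes Vwf and Nr2f2 among its leading genes, had less Epas1, at 954 CPM in E4 and 1002 CPM in E3, against 1200.0 CPM in E4 and 1150 CPM in E3 in the other groups. Its Hif1a was 130.0 CPM in E4 and 166 CPM in E3, with 95.4 CPM in E4 and 83.3 CPM in E3 in the other groups. The opposition did not hold for every group: group 2, which had the lowest Epas1 of the endothelial groups at 858 CPM in E4 and 849.8 CPM in E3, had 96.5 CPM of Hif1a in E4 (49 UMIs) and 54.2 CPM in E3 (22 UMIs). Group 5 had 1177 CPM of Epas1 in E4 and 1190 CPM in E3, with 127 CPM of Hif1a in E4 (46 UMIs) and 64 CPM in E3 (15 UMIs). Egln1 was also lower in the arterial group, at 82.7 CPM in E4 and 87.4 CPM in E3, against 126 CPM in E4 and 119 CPM in E3 in the others. Group 8, with 5 E4 and 17 E3 cells, was counted among the other groups in the arterial and the venous comparison. Its arterial markers summed to 5285 CPM, against 1392 CPM in group 1. Its venous markers summed to 1389 CPM, against 1115 CPM in group 6. The part of group 8 in these differences was not tested.

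Among microglia-like cells Hif1a was higher in group 6, led by Lpl, Ccl4, Csf1, Ccl3 and Tnf. This group had 183 CPM in E4 (152 UMIs) and 184 CPM in E3 (79 UMIs), against 108 CPM in E4 and 101 CPM in E3 in the other microglial groups, a log2 difference of 0.76 in E4 (0.51 to 1.0) and 0.87 in E3 (0.52 to 1.2). Its homeostatic markers summed to 3856 CPM, lower than the 6418 to 7839 CPM in groups 1 to 5. Group 2, led by the immediate-early genes Egr1, Fos and Atf3, whose list summed to 35204 CPM there, did not share this: Hif1a was 96.8 CPM in E4 and 89.7 CPM in E3. Its Ddit4 was 11.4 CPM in E4 and 13 CPM in E3, against 10.5 CPM in E4 and 13.6 CPM in E3 in the other groups. Groups 4 (867 E4 and 292 E3 cells) and 5 (108 E4 and 498 E3 cells) were held mostly by a single library, so the mix of groups differs between E4 and E3.

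**Figure D2:**
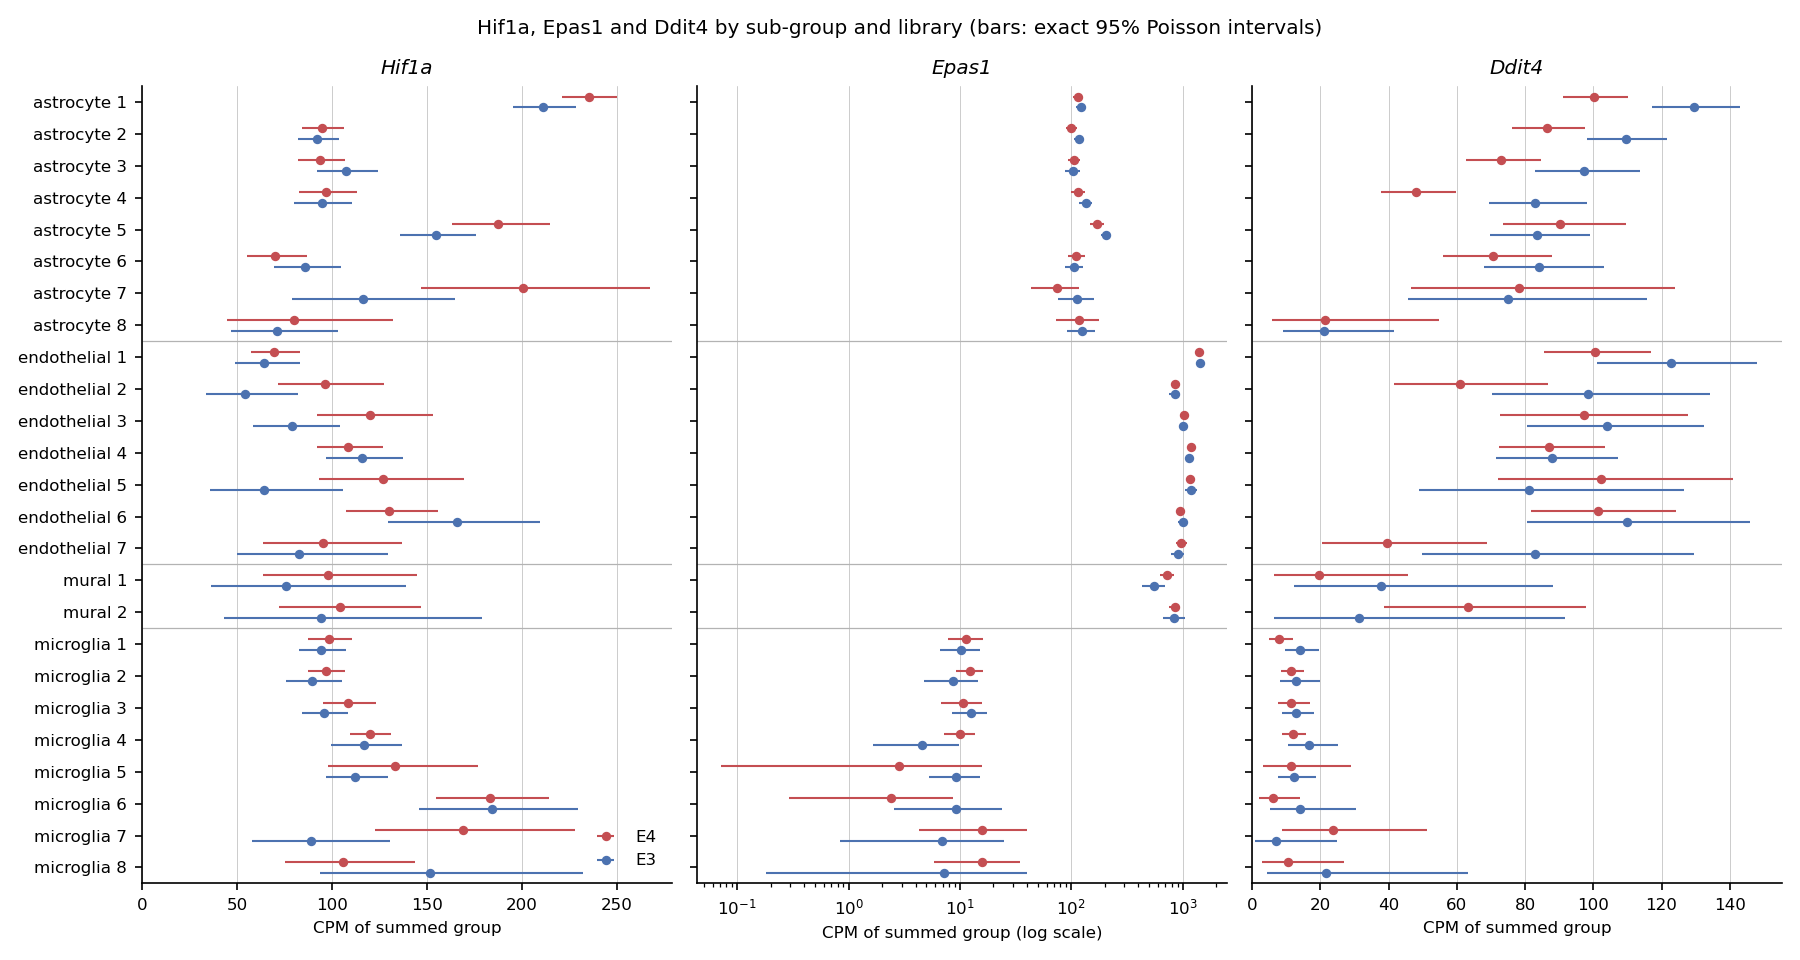
Hif1a, Epas1 and Ddit4 (x axes, CPM of the summed group, a log scale for Epas1) in sub-groups of astrocyte-like, endothelial-like, mural-like and microglia-like cells, E4 in red above E3 in blue with exact 95% Poisson intervals. Among astrocyte groups Hif1a is highest in group 1 in both libraries, followed by group 7 in E4 and group 5 in E3, and Epas1 is highest of all groups shown in endothelial group 1 at 1417 CPM in E4 and 1438 CPM in E3.

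E4 was compared with E3 in the 6 classes that held 200 cells or more in both libraries, for pairs of gene and class with at least 200 UMIs over both. A gene was called where its CPM was at least 25% higher or 20% lower in E4, which describes the libraries and tests nothing. Of 37 pairs, 3 were called higher in E4, 1 lower, and 33 lay between these limits. The ratios had exact 95% binomial intervals, which lay wholly above 0 on the log2 scale for 6 pairs and below 0 for 3.

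In astrocyte-like cells 9 members were compared and none was called in either direction, where 3.47% of all 9604 genes were called higher and 2.72% lower. Hif1a was 0.15 higher in E4 on the log2 scale (0.06 to 0.25) and Hif3a 0.30 higher (0.05 to 0.55), while Epas1 was lower by 0.17 (-0.27 to -0.07 for the ratio) and Ddit4 by 0.31 (-0.42 to -0.19). The alpha subunit genes thus differed in the direction of their ratios. Egln2 and Bnip3 had ratios of -0.0012 and 0.0067, and those of Arnt, Egln1 and Vhl had intervals that held 0. Within the class, Vhl had a ratio of -0.65 (-1.08 to -0.21) in group 1, while it was higher in E4 in 4 of 6 sub-groups. By sub-group, the Hif1a ratio was 0.15 in group 1 (0.01 to 0.30) and 0.28 in group 5 (0.0031 to 0.55), and lay between -0.30 and 0.04 in the telencephalic groups. It was largest in group 7, the group with the low median depth, at 0.79 (0.10 to 1.49).

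In endothelial-like cells none of 7 members was called, with 6.06% of 6174 genes called higher and 2.8% lower. Epas1 was measured most precisely, with a log2 ratio of 0.03 (-0.02 to 0.09), so that both bounds of the interval lay well inside the limits for a call. Egln2 was 0.24 higher in E4 (0.01 to 0.47), and Ddit4 had a ratio of -0.18 (-0.37 to 0.01). In microglia-like cells 1 of 8 members was called, in a class where 4.87% of 8681 genes were called higher and 1.77% lower. That member was Ddit4, with 161 UMIs in E4 and 142 in E3, a ratio of -0.33 (-0.66 to 0.01) whose interval held 0. Hif1a in the same cells had a ratio of 0.11 (-0.0016 to 0.22).

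In oligodendrocyte-like cells 1 of 6 members was called higher, where 6.02% of 5596 genes were called higher and 2.91% lower. Hif1a was at 61.1 CPM in E4 (309 UMIs) and 46.9 CPM in E3 (219 UMIs), a log2 ratio of 0.38 (0.13 to 0.64), and it was higher in E4 in each of the 4 sub-groups with at least 50 UMIs. Over 11 alternatives in the processing the ratio kept its sign in 10 and was past the limit for a call in 9. When cells were gated on class markers in place of clusters it was -0.0086, so the call was not kept with that way of drawing the class. Immediate-early and stress genes were also higher there, 11 of 11 with a median ratio of 0.46, beside 0.03 over all genes. The part of these stress genes in the Hif1a difference was not tested. In choroid plexus-like cells 2 of 5 members were called higher, where 6.07% of 4020 genes were called higher and 2.89% lower. Egln1 had 44.0 CPM in E4 and 34.3 CPM in E3, a ratio of 0.36 (0.05 to 0.67), and Bnip3 had 40.5 CPM in E4 and 31.9 CPM in E3, a ratio of 0.34 (0.02 to 0.67). The mean of per-cell values, which gives each cell the same weight, put the Egln1 ratio at -0.060. Median depth was 11285 UMIs per E4 and 8768 per E3 choroid plexus-like cell. Neuroprogenitor-like cells had enough UMIs for 2 members only, and none was called, with 7.93% of 2672 genes called higher and 4.04% lower. With 2 to 9 members in a class, each call is 1 gene or a pair of genes. These are too few to set against the background shares. Whether the calls are particular to the oxygen-sensing genes was not tested.

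**Figure D3:**
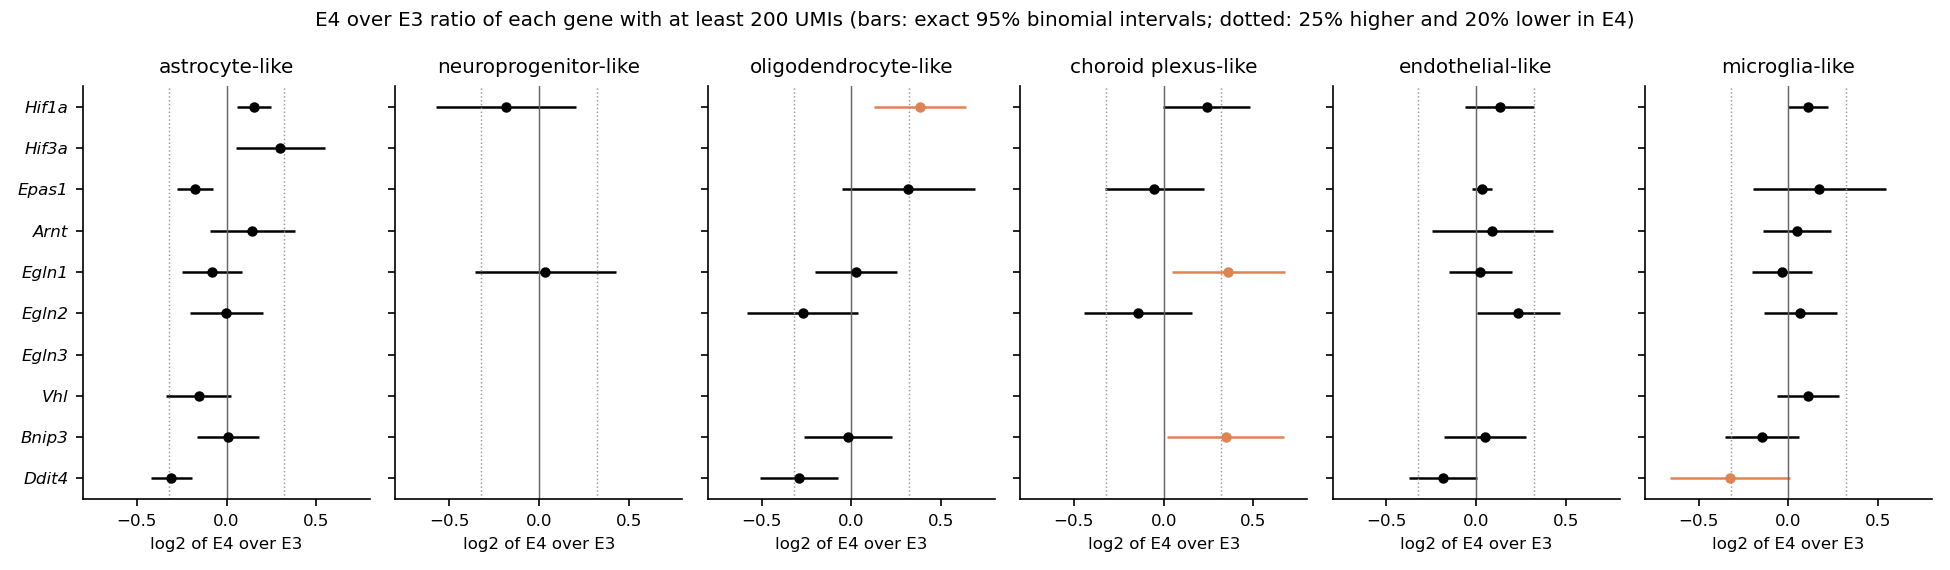
Log2 ratio of E4 over E3 (x axis) for each gene with at least 200 UMIs in each of 6 classes (panels), with exact 95% binomial intervals and dotted lines at the limits for a call, 25% higher and 20% lower. The 4 pairs in orange are past them, 3 of them higher and 1 lower in E4, and 33 lie between the lines.

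Ddit4 had the most uniform direction of the 10 genes. It was lower in E4 in 9 of 10 classes, and meningeal-like cells, at 29.8 CPM in E4 and 24.3 CPM in E3, were the exception. Few UMIs lay behind choroid plexus-like (11 in E4, 14 in E3), macrophage-like (11 and 13) and erythroid-like cells (8 and 16). The share of all genes that were lower in as many classes is not given here. Of the 7 classes with at least 50 UMIs, 6 were lower, with ratios between -0.34 and -0.16, and intervals below 0 in astrocyte-like cells and in oligodendrocyte-like cells (-0.51 to -0.07). Within astrocyte-like cells, 5 of 6 sub-groups were lower. The ratio was largest in size in group 4, led by Ass1, Hopx and Igfbp5, with 47.9 CPM in E4 and 82.8 CPM in E3, a ratio of -0.79 (-1.21 to -0.38). Group 5 had 90.2 CPM in E4 and 83.5 CPM in E3. All 6 oligodendrocyte sub-groups and all 4 microglial sub-groups with at least 50 UMIs were lower, as were 5 of 6 endothelial ones. These classes and groups come from the same pair of libraries and do not count as separate evidence. Over 11 alternatives in the processing the astrocyte ratio lay between -0.40 and -0.20 and was past the limit for a call in 6 of them.

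**Figure D4:**
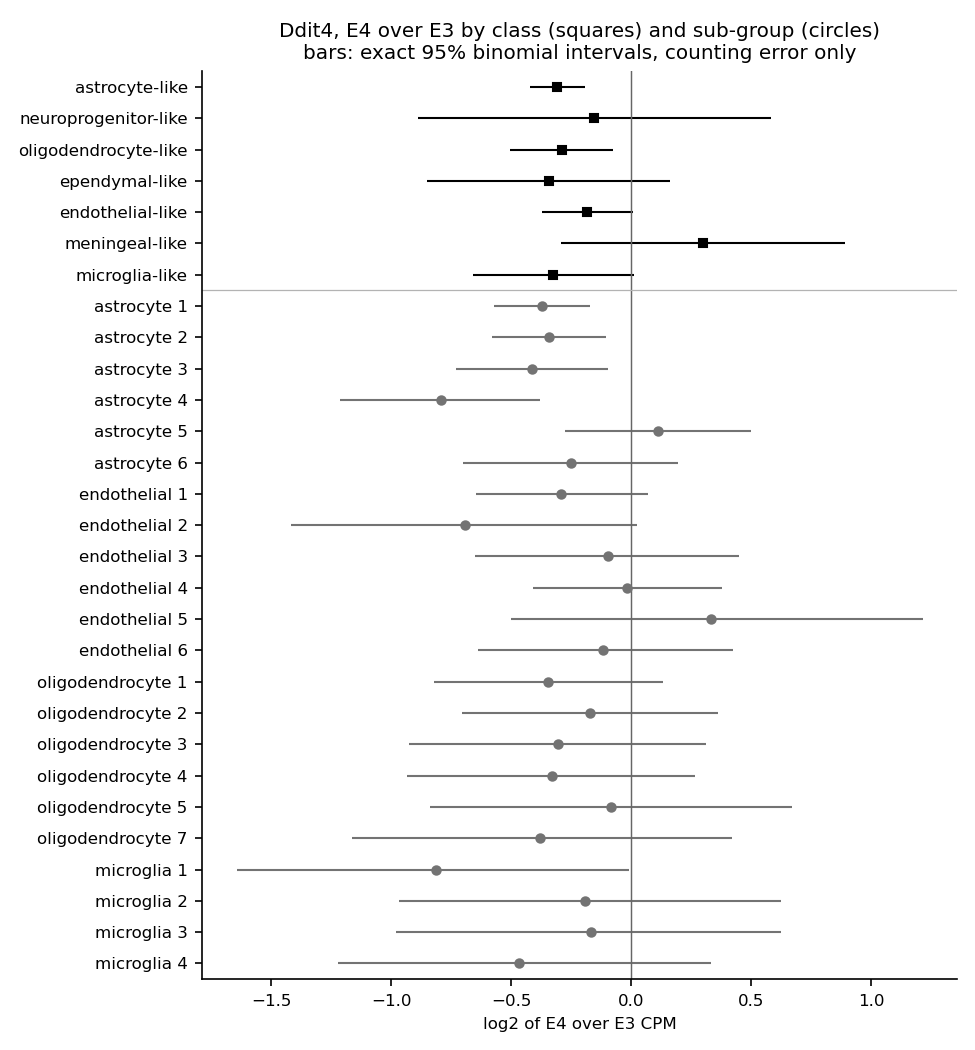
Log2 ratio of E4 over E3 for Ddit4 (x axis) in classes (black squares) and in sub-groups (grey circles) with at least 50 UMIs, with exact 95% binomial intervals. All points but meningeal-like cells, astrocyte group 5 and endothelial group 5 lie left of 0.

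Among smaller classes, Epas1 in macrophage-like cells was at 50.5 CPM in E4 (43 UMIs) and 22.8 CPM in E3 (16 UMIs), a ratio of 1.14 (0.29 to 2.07). Markers of other cells differed there between the libraries. Endothelial markers summed to 451 CPM in E4 and 103 CPM in E3, B cell markers to 3939 CPM in E4 and 230 CPM in E3, and neutrophil markers to 1077 CPM in E4 and 2665 CPM in E3, beside 9018 CPM in E4 and 8693 CPM in E3 of macrophage markers. T or NK cell markers were at 484 CPM in E4 and 526 CPM in E3. Microglia markers were at 1788 CPM in E4 and 1351 CPM in E3. Astrocyte markers were at 1668 CPM in E4 and 2136 CPM in E3. The class thus held transcripts of several other cell types, and their part in its levels was not tested. Epas1 in erythroid-like cells had a ratio of -0.84 (-1.37 to -0.32), in the class whose endothelial markers were lower in E4.

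A list of 13 regulators of the pathway, among them Arnt2, the ligase partners Elob, Eloc, Cul2 and Rbx1, the hydroxylase Hif1an and the chaperone Hsp90ab1, had a median ratio of 0.02 in astrocyte-like, 0.03 in microglia-like and 0.07 in endothelial-like cells, beside 0.01, 0.04 and 0.04 over all genes. None of its members was called in those classes. Hsp90ab1, which holds client proteins in shape, was at 739 CPM in E4 and 663 CPM in E3 astrocyte-like cells and at 2406 CPM in E4 and 2183 CPM in E3 endothelial-like cells. Elob, the adaptor that joins the Vhl protein to its ligase, was at 378 CPM in E4 and 428 CPM in E3 astrocyte-like cells, a ratio of -0.18 (-0.23 to -0.12), with ratios of -0.24 in oligodendrocyte-like and -0.14 in microglia-like cells. In oligodendrocyte-like cells 3 of 11 regulators were called higher in E4 and none lower, with a median of 0.16, beside 0.03 over all genes. There 6.02% of all genes were called higher and 2.91% lower.

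Of 46 further HIF target genes, 34 had enough UMIs in astrocyte-like cells, 16 higher and 18 lower in E4 with a median of -0.0043, and 4 were called lower and none higher, where 3.47% of all genes were called higher and 2.72% lower. The median over all genes was 0.01 in these cells. The 4 called lower, named after their values were seen, were Adm, Vldlr, Pdk1 and Ak4. Adm had a ratio of -0.46 (-0.86 to -0.07) and Vldlr of -0.37 (-0.65 to -0.08). Pdk1 had a ratio of -0.36 (-0.62 to -0.10) and Ak4 of -0.35 (-0.51 to -0.18). None of the targets described next in astrocyte-like cells was among these 4. The 4 most abundant targets were glycolytic enzymes. Gapdh had 1687 CPM in E4 and 1599 CPM in E3, a ratio of 0.08 (0.05 to 0.10), and Aldoa 578 CPM in E4 and 579 CPM in E3. Eno1 was higher in E4, with 531 CPM in E4 and 467 CPM in E3, a ratio of 0.19 (0.14 to 0.23), and Tpi1 had 300.2 CPM in E4 and 296 CPM in E3. Ldha, the lactate dehydrogenase subunit, named after its values were seen, had 109 CPM in E4 and 118 CPM in E3, a ratio of -0.11 (-0.21 to -0.0046). Vegfa, the vessel growth factor, named after its values were seen, had 228 CPM in E4 and 257 CPM in E3, a ratio of -0.18 (-0.25 to -0.11). In microglia-like cells 15 of 28 targets were higher and 13 lower, none called, with a median of 0.03, beside 0.04 over all genes. Hk2, a hexokinase that starts glycolysis, had 336 CPM in E4 and 380 CPM in E3 there, a ratio of -0.17 (-0.24 to -0.11).

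Endothelial-like cells showed the widest spread among targets, with 18 of 29 higher and 11 lower in E4. The target median was 0.07, beside 0.04 over all genes. Of the 29 targets, 5 were called higher and 3 lower, where 6.06% of all genes were called higher and 2.8% lower. The 5 called higher are not all named below, while the 3 called lower are. Slc2a1, the glucose transporter of the blood-brain barrier, had 2041 CPM in E4 (11695 UMIs) and 1526 CPM in E3 (6147 UMIs), a ratio of 0.42 (0.37 to 0.46). Ndrg1 had 705 CPM in E4 and 539 CPM in E3, a ratio of 0.39 (0.31 to 0.46). Adm, which encodes the vasodilator adrenomedullin, went the other way, with 12.6 CPM in E4 (72 UMIs) and 37.7 CPM in E3 (152 UMIs), a ratio of -1.59 (-2.01 to -1.17). Ankrd37 and Ero1l, named after their values were seen, were also lower in E4, at -0.49 (-0.73 to -0.25) and -0.55 (-0.85 to -0.24). Known targets of HIF thus lay on both sides of 0 in a class where Epas1 had a ratio of 0.03. Endothelial group 3, with Ankrd37 among its leading genes, held 164 of 1042 E4 and 173 of 751 E3 cells, and the part of this mix in the target ratios was not tested.

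**Figure D5:**
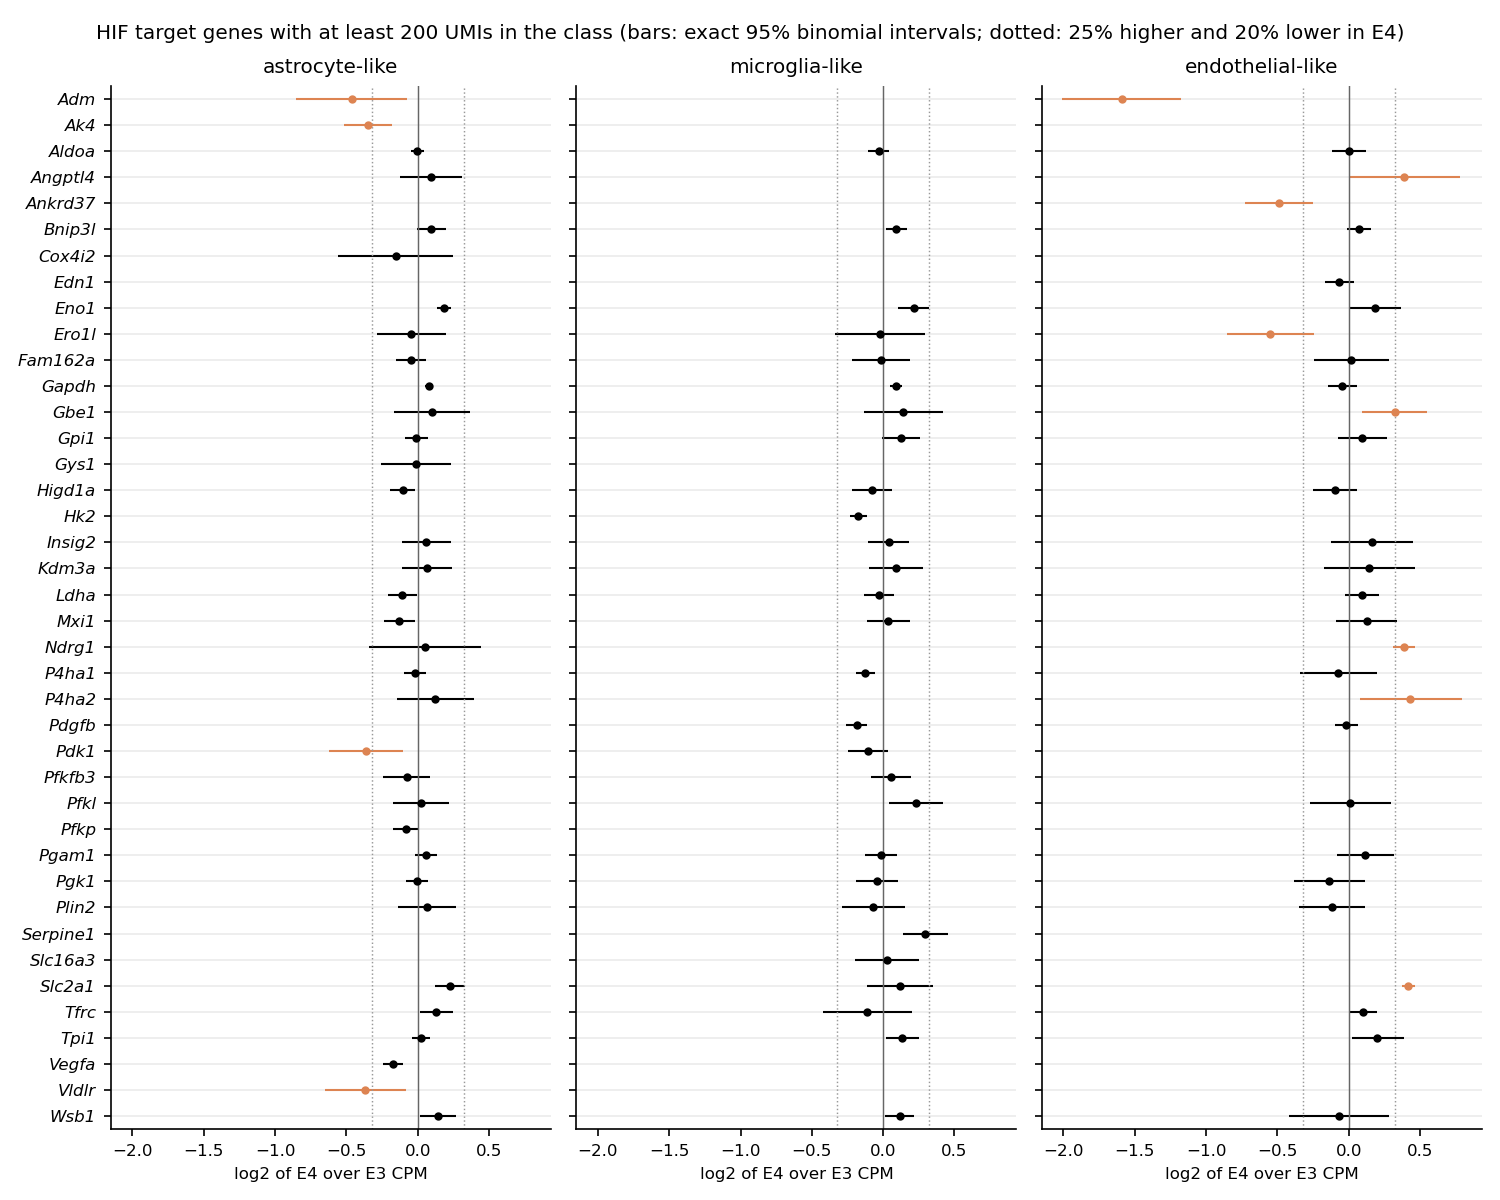
Log2 ratio of E4 over E3 (x axis) for HIF target genes (rows) with at least 200 UMIs in astrocyte-like, microglia-like and endothelial-like cells, with exact 95% binomial intervals and dotted lines at the limits for a call. Orange marks called genes: 4 of 34 in astrocyte-like cells, 0 of 28 in microglia-like cells and 8 of 29 in endothelial-like cells, with Adm at -1.59.

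Other lists bear on Bnip3 and Ddit4. In a list of 14 mitophagy genes the median ratio lay between -0.02 and 0.09 over the 6 classes. Bnip3l, the closest relative of Bnip3, was at 833 CPM in E4 and 755 CPM in E3 oligodendrocyte-like cells. Its ratio was 0.14 (0.08 to 0.21). Glucocorticoid-responsive genes had a median ratio of 0.19 in astrocyte-like cells, where 5 of 9 were higher in E4, while their summed level was 2457 CPM in E4 and 2546 CPM in E3. Mt2, a metallothionein and the most abundant of them, was lower in E4 at 1451 CPM in E4 and 1683 CPM in E3, a ratio of -0.21 (-0.24 to -0.19). Klf9, at 498 CPM in E4 and 438 CPM in E3, and Tsc22d3, at 297 CPM in E4 and 236 CPM in E3, were higher. Their median was 0.36 in oligodendrocyte-like cells, where 8 of 9 were higher, and 0.17 in microglia-like cells, where Tsc22d3 was lower at 116.5 CPM in E4 and 158.5 CPM in E3. Zbtb16, a transcription factor of this group, had 91.6 CPM in E4 and 49.1 CPM in E3 oligodendrocyte-like cells, a ratio of 0.90 (0.67 to 1.14). Integrated stress response genes had a median of -0.0047 in astrocyte-like cells and 0.22 in microglia-like cells, where 6 of 6 were higher in E4. Immediate-early and stress genes, which dissociation can induce, were higher in E4 for 16 of 18 in microglia-like cells, with a median of 0.45. Over all genes the medians were 0.01 in astrocyte-like, 0.04 in microglia-like and 0.03 in oligodendrocyte-like cells. Haemoglobin and the rRNA-linked genes Gm42418, AY036118 and Lars2 were lower in E4, with Gm42418 at 15425 CPM in E4 and 34599 CPM in E3 astrocyte-like cells. The part of these differences between libraries in the members' ratios was not tested.

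Over the 20 points formed by 10 classes and 2 libraries, the genes whose log2(CPM + 1) followed a member most closely were given as a description. Hif1a was followed by Mob4, Necap1 and Lamtor3 (Pearson r of 0.90, 0.90 and 0.86), and Epas1 by Vwa1, Shroom4 and Sgms1 (0.92, 0.92 and 0.90). Ddit4 was followed by Fam171a1 (0.94), Arap2 and Plekhg1, Bnip3 by Ankrd40 (0.93), and Vhl by Gmpr2 (0.96). The points share libraries and depth, each class enters with both libraries, and the low erythroid points contribute to every pair. Hif1a and Epas1 themselves had an r of 0.08.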

How the data were processed

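Pooled droplet libraries, 1 for E4 and 1 for E3, were analysed from the matrices of raw UMI counts per gene and barcode that the authors deposited. Per the file headers and the submitters' processing notes, reads were aligned and counted with Cell Ranger 6.1.1 (E4) and 6.1.2 (E3) on mm10, with no normalization. Barcodes were kept from 50 up to 50000 UMIs with no more than 30% of them mitochondrial, after the filter of the study.

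Counts were scaled to 10000 per cell, and 2000 variable genes without the 10 genes, 20 principal components, 15 neighbours and Leiden resolution 1 were used for clustering (scanpy 1.11.5, leidenalg 0.10.2). A cluster was named where at least 3 of its fixed markers were at least 2-fold higher than elsewhere and found in at least 20% of its cells. Clusters with markers of more than 1 class stayed unnamed. Clusters were left out where at least 3 of their 10 leading genes were at least 5-fold higher in 1 other class. Classes of at least 500 cells were clustered again, and sub-groups were left out by the same rule where the markers of that class also reached 10% of their level there, or where cells were shallow (median UMIs more than 3 times below that of their library) with no marker of their own class among the leading genes. These thresholds were set after clusters and some values of the 10 genes had been seen, and the classes were rebuilt here and are not those of the study. Doublets were not removed, and an alternative left out called ones.

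UMIs were summed per class and library and divided by the class total to give CPM. Levels are given for classes of 100 or more cells per library (15 for sub-groups), and a ratio for at least 50 UMIs over both. Named were all 10 genes, of each list the 4 most abundant members in a class and those at least 1.5-fold apart, and the 3 genes most like each member with at least 1000 UMIs. Intervals (95%) were exact Poisson for levels and exact binomial for shares and ratios, from scipy 1.17.1. They cover counting error only, and neither animals nor libraries are replicated, so no test between genotypes was made. A floor of 3 counts was used where no UMI was found. Scripts were tested on simulated data. The 10 genes and the gene lists were chosen with earlier results of these data known. Promoter windows came from RefSeq on GRCm38.p6 and gene positions from GENCODE on GRCm38, where 32235 of 32285 gene IDs were found. Alternatives covered cell filters, doublets, clustering, class totals, thinning to 1000 UMIs, per-cell means, marker gates and thresholds.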

Additional observations from a re-analysis of the deposited data

How the results depend on the processing

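Of the ratios of single genes in single classes, 632 of 649 values over all alternatives stayed within their interval, 15 moved and 2 reversed. A change of sign was counted as reversed only for pairs that had been called. These were Egln1 in choroid plexus-like cells at -0.060 with per-cell means, and Hif1a in oligodendrocyte-like cells at -0.0086 with marker gates. Ratios that were not called could also change sign. Bnip3 in astrocyte-like cells, at 0.0067, kept its sign in 5 of 11 alternatives. Arnt in endothelial-like cells, at 0.09, kept it in 8 of 11, with a lowest value of -0.74. The 3 pairs higher in E4 became 1 with the stricter cell filter, 0 with cells thinned to 1000 UMIs, 0 with marker gates (4 classes only), 0 with a minimum of 1000 UMIs, 0 at 1.5-fold, 10 at 1.1-fold and 5 with mixed sub-groups kept, an alternative chosen after seeing the data. The 1 pair lower in E4 became 2 without mitochondrial, haemoglobin, Gm42418, AY036118 and Lars2 genes in the total, 3 with the stricter filter, 4 without called doublets, 2 at Leiden resolution 0.5, 2 with the 10 genes allowed in clustering, 4 with per-cell means, 2 with a minimum of 50 UMIs, 0 with 1000 UMIs, 0 at 1.5-fold, 10 at 1.1-fold and 3 with mixed sub-groups kept. The highest class was the same in both libraries for 8 to 10 genes. The HIF target median lay between -0.03 and 0.01 in astrocyte-like, -0.02 and 0.07 in microglia-like and 0.01 and 0.11 in endothelial-like cells. The cause of these changes was not tested. Called doublets were 6.25% of E4 and 4.69% of E3 cells. With 1 library a genotype, depth limits pairs under 200 UMIs most, and no replicate could be left out. No paired analysis was possible because each genotype had 1 library and no test was made.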

Other observations

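Cells left out of the classes also carried the 10 genes. Among microglia-like sub-groups left out for astrocyte transcripts, 1 had 50.9 CPM of Epas1 in E4 and 54.1 CPM in E3 and 42.1 CPM of Ddit4 in E4 and 92.8 CPM in E3. A cluster with both pericyte and endothelial markers, of 147 E4 and 100 E3 cells, had 1319 CPM of Epas1 in E4 and 1184 CPM in E3. Its Ddit4 was 56.2 CPM in E4 and 91.5 CPM in E3, a log2 ratio of -0.70 (-1.12 to -0.29).

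Astrocyte group 8, with Myoc and Gfap among its leading genes, had 21.4 CPM of Egln3 in E4 (4 UMIs in 31 cells) and 7.89 CPM in E3 (3 UMIs in 45 cells).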
